A study of Mus musculus with 6 samples.

Results

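Cytosolic ribosomal protein genes encode the proteins of the large and the small subunit of the ribosome. They were taken here as all protein-coding genes whose symbol is Rpl or Rps followed by a digit, together with Rplp0, Rplp1, Rplp2 and Rpsa, leaving out symbols that contain "-ps" and the S6 kinase genes (Rps6k). A mean count of at least 10 over all libraries was also required. Of 44678 gene identifiers in the count tables, 86 had such a symbol and 83 reached the minimum. The genes left out were Rpl10l, which had 0 counts in every library, Rpl3l with a mean of 1.33 counts and Rpl39l with a mean of 2.67 counts. The lowest genes kept were Rps19bp1 with a mean of 73.2 counts and Rps27l with a mean of 184.8 counts. The 83 genes comprised 46 of the large subunit, 32 of the small subunit, 4 near relatives of a ribosomal protein gene (Rpl7l1, Rpl22l1, Rpl36al and Rps27l), and Rps19bp1, which matches the symbol pattern but encodes a protein that binds Rps19.

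Each ribosome holds one copy of nearly every ribosomal protein, so these genes are expressed together and at a high level in dividing and resting cells alike. Many of their mRNAs begin with a C followed by a run of C and T, the 5′ terminal oligopyrimidine (TOP) tract, through which mTORC1 controls their translation. In lymphocytes, ribosome building rises when a resting cell is activated and begins to grow. Unassembled ribosomal proteins, Rpl5 and Rpl11 above all, bind Mdm2 and so link ribosome building to p53.

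RNA-seq was performed on CD8a+ leukocytes from the spleen of untreated adult C57BL/6J mice. The WT group had 3 libraries, and the KO group had 3 libraries from mice that lack the genomic segment holding the precursors of miR-144 and miR-451 in every cell of the body. This microRNA cluster is best known for its role in red blood cell precursors. Nothing in the labels says whether the numbered libraries came from separate mice, so p-values measure the spread between these libraries.

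The start sites are shown because TOP regulation is read from the first bases of the mRNA. RefSeq's promoter table (GRCm38.p6) held 63 of the 83 genes. A C followed by at least 4 further C or T, read on the gene's strand from an annotated start, was found in 14 of the 63 genes (22.2%) and in 3.01% of all 27025 genes in the table. The 5 sequences below carry such a tract, which is in capitals, and the last 3, of a stalk protein and of 2 near relatives, do not. Each shows 15 bases before the annotated start and 15 bases from it, 5′ to 3′ on the gene's strand.

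Rps6, chr4:86857353-86857382, minus strand: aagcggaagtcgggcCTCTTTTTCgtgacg
Rps18, chr17:33955651-33955680, minus strand: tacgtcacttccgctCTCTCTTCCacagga
Rpl15, chr14:18270972-18271001, minus strand: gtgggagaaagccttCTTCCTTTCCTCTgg
Rps27, chr3:90213634-90213663, minus strand: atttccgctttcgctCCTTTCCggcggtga
Rps27rt, chr9:114982725-114982754, minus strand: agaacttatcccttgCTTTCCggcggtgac
Rplp0, chr5:115559452-115559481, plus strand: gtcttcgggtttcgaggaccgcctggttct
Rpl22l1, chr3:28805493-28805522, plus strand: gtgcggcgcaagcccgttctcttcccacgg
Rpl7l1, chr17:46782642-46782671, minus strand: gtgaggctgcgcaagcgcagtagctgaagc

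A match shows only which letters stand at an annotated start, and a start annotated a few bases off hides a tract. The 7-letter word CCGGAAG, which ETS factors can bind, lay within 250 bases before to 50 bases after the start on either strand in 25 of the 63 genes (39.7%) and in 9.93% of all genes in the table.

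Total counts ran from 8143925 to 8876514 per library, so that 3 counts amounted to 0.338 to 0.368 CPM, the unit in which counts are scaled to a common library total. Of 13024 genes tested, 4 differed between KO and WT at an adjusted p under 0.05 (0.0307%, edgeR quasi-likelihood test, Benjamini-Hochberg adjusted). The identifiers of Mir144 and Mir451a had 0 counts in all 6 libraries, WT included, so these mRNA libraries give no check of the deletion. KO2 stood apart from the other libraries by its markers, with the lowest sum of CD8 T cell markers and the highest sum of erythroid markers. The main counts and medians are therefore also given without it.

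Ribosomal protein genes took a smaller share of the counts in each KO library than in any WT library. They held 8.92%, 8.80% and 8.73% of all counts in WT1, WT2 and WT3. In KO1, KO2 and KO3 they held 7.78%, 6.73% and 8.41%. The mean share of the 3 WT libraries was 8.82% (SD 0.0962, n = 3) and that of the 3 KO libraries was 7.64% (SD 0.852, n = 3), a difference of -1.18 percentage points, or -0.72 without KO2. The WT libraries lay close together, the KO libraries were spread widely, and KO3 came near to the WT range. The 95% Wilson intervals reached at most 0.0194 percentage points to either side, which covers counting error only. In cells taken in bulk, fewer cells of a type and less RNA per cell cannot be told apart.

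**Figure D1:**
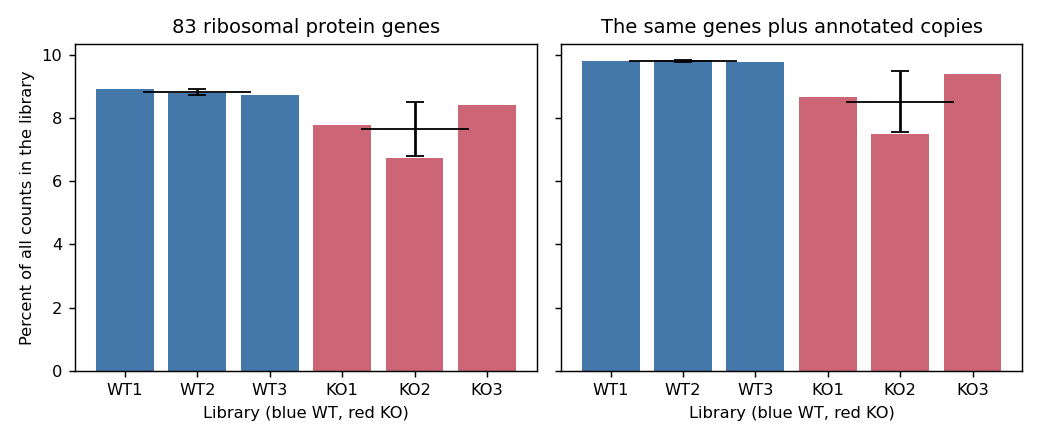
Percent of all counts in each library (y axis) held by the 83 ribosomal protein genes (left) and by the same genes plus their annotated copies, which share their sequence in whole or in part (right); bars are libraries, and the black line with its bar gives each group's mean ± SD (n = 3). All 3 KO libraries sit below all 3 WT libraries in both panels, KO2 lowest with 6.73% and 7.48%.

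Both subunits showed the lower share. The large subunit genes held 4.92%, 4.78% and 4.70% of counts in the WT libraries and 4.17%, 3.62% and 4.50% in the KO libraries. The small subunit genes held 3.96%, 3.98% and 3.98% in WT and 3.58%, 3.07% and 3.87% in KO. The ratio of large to small subunit counts was 1.24, 1.20 and 1.18 in WT and 1.16, 1.18 and 1.16 in KO. In both subunits the KO shares lay below the WT shares with KO2 lowest, while the ratios of WT3 and KO2 were nearly equal.

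Gene by gene, no ribosomal protein gene passed the adjusted threshold, and the smallest adjusted p was 0.716 (edgeR quasi-likelihood test, Benjamini-Hochberg adjusted). The fitted log2 fold change was below 0 in 78 of the 83 genes (94.0%), against 49.4% of all tested genes. The median log2 fold change was -0.22, a fold of 0.861, against 0.0029 for all tested genes. Among 2255 other genes with a mean of at least 100 CPM the median was -0.0019, and 50.9% were below 0. At an unadjusted p under 0.05, 17 of the 83 genes (20.5%) were lower in KO and 0 were higher, against 2.12% and 4.14% of all tested genes (edgeR quasi-likelihood test). In 21 genes (25.3%) all KO libraries lay below all WT libraries, against 4.81% of all tested genes, and in 0 genes did all KO libraries lie above, against 6.71%. The 2 counts had 13 genes in common. These genes were measured in the same libraries and vary together, so they are not 83 separate observations.

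The KO libraries differed among themselves. KO2 was the lowest library for 65 of the 83 genes. A WT library was the highest for 80 of them. The number of genes below all WT libraries was 47 in KO1, 67 in KO2 and 26 in KO3. No share over all tested genes stands beside these counts of lowest, highest and lower genes, so they serve as description only. Relative to each gene's WT mean, the median log2 level over the 83 genes was 0.029, -0.00088 and -0.015 in WT1 to WT3 and -0.17, -0.37 and -0.085 in KO1 to KO3. Without KO2, 2 of the 83 genes were lower at an unadjusted p under 0.05, against 1.1% of all tested genes, and the median log2 fold change was -0.14, with -0.16 for the large and -0.12 for the small subunit. Without KO1 there were 3 such genes, against 1.65% of all tested genes. Without KO3 there were 43, against 5.68% of all tested genes, with a median of -0.32. The fit without KO3 also called 1 gene, Rpl29, against 0.707% of all tested genes, with a log2 fold change of -1.10 and an adjusted p of 0.0165 (edgeR quasi-likelihood test, Benjamini-Hochberg adjusted). The WT libraries moved the count as well, to 15 genes without WT1, 8 without WT2 and 12 without WT3, against 3.38%, 1.13% and 1.504% of all tested genes. Of these, 6, 4 and 10 were among the 17.

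**Figure D2:**
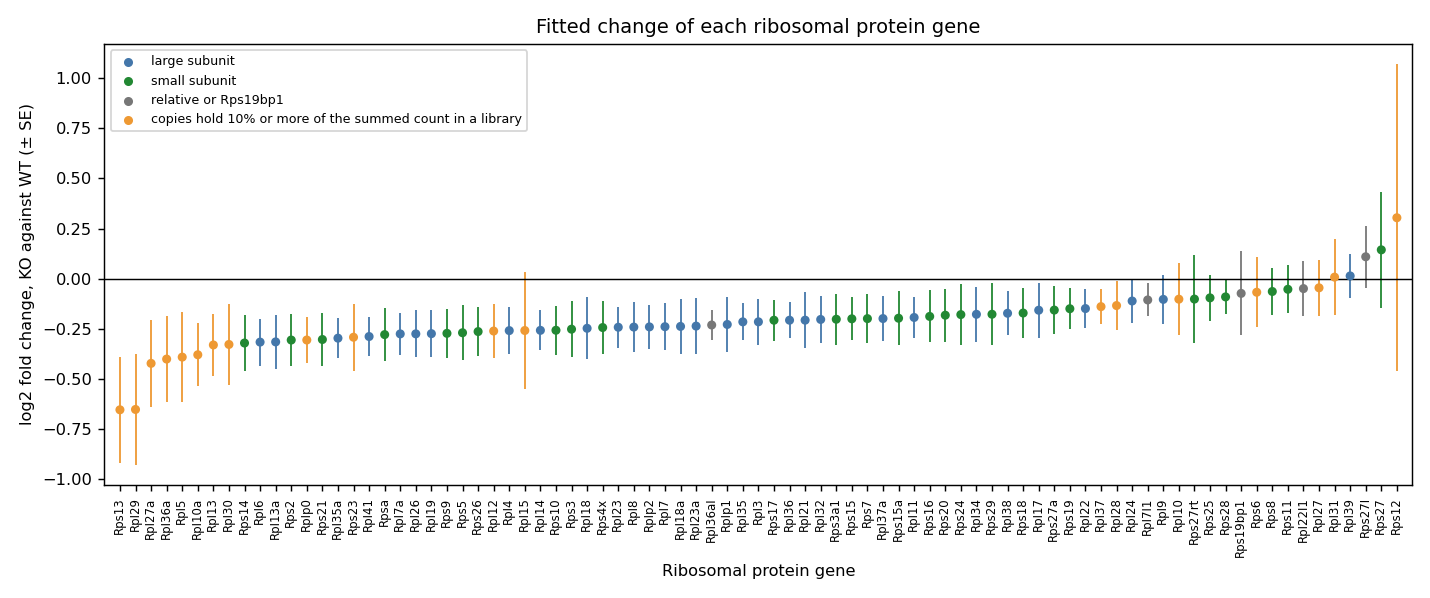
Fitted log2 fold change of KO against WT (y axis, bars ± SE) for each of the 83 ribosomal protein genes, ordered from the lowest to the highest, with colours for the subunit and for genes whose annotated copies held 10% or more of the summed count in some library. 78 of the 83 points lie below 0, and the widest bar belongs to Rps12 (SE 0.77), a gene with heavy copies.

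The levels themselves spanned a wide range. Mean CPM over the 6 libraries ran from 8.56 for Rps19bp1 to 2878 for Rplp0, with a median of 874.9. At least 100 CPM was reached by 77 genes, and 36 of the 100 genes with the highest mean CPM were ribosomal protein genes. Per kilobase of transcript the median was 1240.1 CPM, and Rplp1 (3895 CPM per kilobase), Rps24 (3553), Rps27rt (3522), Rpl13a (2723), Rps14 (2465) and Rps18 (2414) stood highest. Lowest per kilobase were Rps19bp1 (10.2), Rpl7l1 (24.4), Rpl5 (26.1), Rps27l (43.3), Rpl27 (61.7) and Rpl12 (98.9). For Rpl5, Rpl27 and Rpl12 most of the counts sat on near-identical copies, as given below.

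In the large subunit, 44 of 46 genes had a log2 fold change below 0, with a median of -0.24, and 13 (28.3%) were lower at an unadjusted p under 0.05, against 2.12% of all tested genes (edgeR quasi-likelihood test). Rplp0, Rplp1 and Rplp2 form the stalk on which elongation factors act. Rplp0, the scaffold of the stalk, measured 3260 CPM, 3263 CPM and 2966 CPM in the WT libraries and 2696 CPM, 2301 CPM and 2781 CPM in the KO libraries. The groups did not overlap, and the WT mean was 3163 CPM (SD 171, n = 3) against a KO mean of 2593 CPM (SD 256, n = 3). The log2 fold change was -0.31 (SE 0.11), with an unadjusted p of 0.0258 and an adjusted p of 0.773 (edgeR quasi-likelihood test, Benjamini-Hochberg adjusted).

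The other stalk genes overlapped between the groups. Rplp1 measured 2079 CPM, 2139 CPM and 2037 CPM in WT and 1787 CPM, 1506 CPM and 2114 CPM in KO, where KO3 lay within the WT range. The log2 fold change of Rplp1 was -0.23 (SE 0.14), and it was -0.11 without KO2 and -0.39 without KO3. Rplp2 measured 977 CPM, 1075 CPM and 1120.0 CPM in WT and 912 CPM, 824 CPM and 985 CPM in KO, and its log2 fold change was -0.24 (SE 0.11). Both stalk genes thus had their lowest value in KO2.

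Rpl11, which with Rpl5 carries 5S rRNA into the ribosome, measured 933 CPM, 943 CPM and 1056 CPM in WT. In KO it measured 912 CPM, 801 CPM and 887 CPM, below every WT library, with a log2 fold change of -0.19 (SE 0.10). Rpl13a, known also as part of a complex that silences inflammatory mRNAs, measured 2786 CPM, 3062 CPM and 3579 CPM in WT and 2726 CPM, 2237 CPM and 2716 CPM in KO. Its groups were likewise separate, though KO1 and WT1 were close, and the log2 fold change was -0.32 (SE 0.13, unadjusted p 0.0471, adjusted p 0.786, edgeR quasi-likelihood test, Benjamini-Hochberg adjusted). Rpl41, chosen after its values were seen because it had the smallest p of the 83 genes, measured 1116 CPM, 949 CPM and 1022 CPM in WT and 859 CPM, 831 CPM and 871 CPM in KO. Its log2 fold change was -0.29 (SE 0.095), with an unadjusted p of 0.0162 and an adjusted p of 0.716 in the same test.

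The exceptions in the large subunit were Rpl39 and Rpl31, both of which lie near the tunnel through which the new protein leaves. Rpl39 measured 539 CPM, 635 CPM and 580.2 CPM in WT and 573 CPM, 565 CPM and 657 CPM in KO, and the groups overlapped throughout. The fitted log2 fold change was 0.014 (SE 0.11), and that of Rpl31 was 0.0076 (SE 0.19). The sign of both turned with the scaling, Rpl39 to -0.0024 and Rpl31 to -0.0083 where the scaling factors were computed without ribosomal protein genes, so neither can be given a direction. Annotated copies, described below, also held 28.88% to 53.55% of the summed count of Rpl31. With them its log2 fold change was -0.0090.

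In the small subunit, 30 of 32 genes had a log2 fold change below 0, with a median of -0.20, and 3 (9.38%) were lower at an unadjusted p under 0.05, against 2.12% of all tested genes (edgeR quasi-likelihood test). Rpsa, which is also known as a laminin-binding protein, measured 3176 CPM, 3080 CPM and 3081 CPM in WT and 2611 CPM, 2171 CPM and 3012 CPM in KO. The WT values were nearly equal, and KO3 was only just below them. The log2 fold change was -0.28 (SE 0.13), with an adjusted p of 0.811 (edgeR quasi-likelihood test, Benjamini-Hochberg adjusted). Without KO2 the value of Rpsa was -0.16 and without KO3 it was -0.43.

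Rps14, whose loss from one chromosome copy underlies the anaemia of the human 5q- syndrome, measured 1486 CPM, 1551 CPM and 1837 CPM in WT and 1359 CPM, 1123 CPM and 1472 CPM in KO. All KO libraries were below all WT libraries, and the log2 fold change was -0.32 (SE 0.14). Rps19, the gene most often mutated in Diamond-Blackfan anaemia, measured 1002 CPM, 1146 CPM and 1088 CPM in WT and 1033 CPM, 913 CPM and 1011 CPM in KO. Its groups overlapped, with a log2 fold change of -0.15 (SE 0.10).

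Rps27a, which is made as a fusion with ubiquitin, had a log2 fold change of -0.16 (SE 0.12) with overlapping groups, and Rps24 and Rps18 had -0.18 (SE 0.15) and -0.17 (SE 0.12). Without KO2 the values of Rps27a, Rps24 and Rps18 were -0.064, -0.081 and -0.078, and without WT1 that of Rps24 was -0.064. Without KO3 the values of Rps27a, Rps24 and Rps18 were -0.24, -0.32 and -0.27, and without WT3 that of Rps24 was -0.30. Rps6, the substrate of the S6 kinases, measured 2313 CPM, 1874 CPM and 1480.0 CPM in WT and 1865 CPM, 1572 CPM and 2037 CPM in KO. All KO values lay within the WT range, and the log2 fold change was -0.068 (SE 0.17).

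The near relatives of ribosomal protein genes lay closer to 0, with a median log2 fold change of -0.073 over these 4 genes and Rps19bp1. Rpl36al, a near twin of Rpl36a, was the exception. It measured 168 CPM, 181 CPM and 167 CPM in WT and 152 CPM, 148 CPM and 147 CPM in KO, with no overlap. Its log2 fold change was -0.23 (SE 0.076), with an unadjusted p of 0.0163 and an adjusted p of 0.716 (edgeR quasi-likelihood test, Benjamini-Hochberg adjusted). Rpl22l1, a relative of Rpl22, which is needed in T cell development, measured 115 CPM, 137 CPM and 152 CPM in WT and 134 CPM, 114 CPM and 147 CPM in KO. It made up 21.2%, 22.9% and 25.1% of the summed CPM of Rpl22 and Rpl22l1 in WT and 24.3%, 23.3% and 25.3% in KO, so these shares overlapped. Rpl7l1, which works in ribosome building, had a log2 fold change of -0.11 (SE 0.082). Rps27l, a p53 target, measured 25.03 CPM, 17.8 CPM and 19.0 CPM in WT and 23.1 CPM, 23.0 CPM and 21.6 CPM in KO, with a log2 fold change of 0.11 (SE 0.15) that ran from 0.014 without WT2 to 0.27 without WT1.

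Ribosomal protein genes have many processed pseudogenes, and a read from the mRNA can match gene and copy alike. Copies were searched by sequence: an annotated gene counted as a copy when at least 20% of its transcript's own 31-base words were also in a ribosomal protein mRNA. There were 570 such copies of 78 of the genes, 287 of them with counts, and 34 had a mean of at least 10 counts. They ran from full to partial matches. Gm8730, a copy of Rplp0, shared 62.8% of its words. Gm45713, counted as a copy of Rpl13a with 40.9%, overlaps the position of Rpl13a itself. In 59 genes the copies held under 1% of the summed count in every library. In 19 genes they held 10% or more in some library, and in 14 genes that share moved by 10 points or more between libraries. The 6 lowest log2 fold changes were all in these 19 genes: Rps13, Rpl29, Rpl27a (-0.42), Rpl36a (-0.40), Rpl5 (-0.39) and Rpl10a (-0.38). With copies added, Rpl27a, Rpl36a, Rpl5 and Rpl10a had -0.18, -0.26, -0.22 and -0.29.

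Several of the widest spreads in the set were exchanges of counts between a gene and its copy. Rps12 had 556, 9812 and 7734 counts in WT1 to WT3 and 8039, 5880 and 8793 counts in KO1 to KO3. Its copy Rps12-ps3 (chr19:59322290-59322783, plus strand) had 10347, 1829 and 2063 counts in WT and 1475, 1981 and 2397 counts in KO. WT1 thus held most of these counts on the copy and the other libraries most of them on the gene. For the gene with all its copies the sums were 10916, 11649 and 9797 counts in WT and 9524, 7868 and 11204 counts in KO. The log2 fold change of Rps12, the highest of the 83 at 0.30 (SE 0.77), was -0.19 for the sum.

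Rps13 showed the same exchange in WT1 in the other direction. Its copy Rps13-ps2 (chr7:88530446-88530898, minus strand) had 0 counts in WT1, 4183 and 3076 counts in WT2 and WT3, and 3383, 2641 and 3301 counts in KO. The gene itself measured 982 CPM, 454 CPM and 526 CPM in WT and 419 CPM, 379 CPM and 463 CPM in KO. The log2 fold change was -0.65 (SE 0.26), the lowest of the 83 genes, and -0.27 (SE 0.10) for gene and copies together, where all KO libraries lay below all WT libraries. Without WT1 the value of Rps13 alone was -0.25.

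Rpl15 and Rps6 also had heavy copies in some WT libraries. The copies of Rpl15 held 311, 3020 and 4114 counts in WT and 2469, 1944 and 2347 counts in KO. Those of Rps6 held 8, 1712 and 4906 counts in WT and 3, 46 and 7 counts in KO. With the copies added, Rps6 measured 2314 CPM, 2067 CPM and 2082 CPM in WT and 1866 CPM, 1577 CPM and 2038 CPM in KO, and the groups no longer overlapped.

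In Rpl29 and Rplp0 the copies were heavy on the KO side. Rpl29 measured 786 CPM, 841 CPM and 666 CPM in WT and 392 CPM, 343 CPM and 739.8 CPM in KO, so that KO1 and KO2 were low and KO3 was within the WT range. Its copies held 50, 58 and 39 counts in WT and 1140, 1117 and 163 counts in KO. The log2 fold change was -0.65 (SE 0.28) for the gene and -0.41 (SE 0.18) with the copies. For Rplp0 the copies held 4055 counts in KO3 and between 2 and 62 counts in each of the other libraries. With them KO3 reached 3243 CPM, the groups overlapped, and the log2 fold change was -0.22 (SE 0.14) in place of -0.31.

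**Figure D3:**
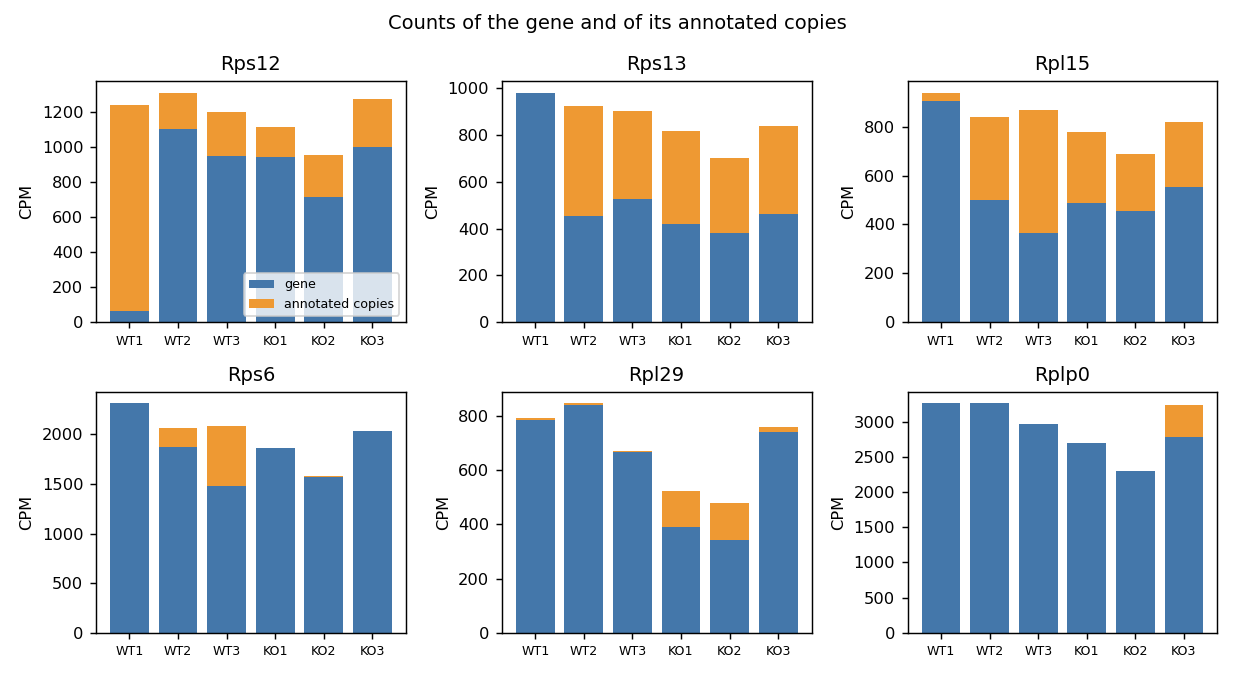
CPM (y axis) in each library for 6 ribosomal protein genes (blue) with those of their annotated copies stacked on top (orange). The sum of gene and copies varied less between libraries than the gene alone for Rps12, Rps13, Rpl15, Rps6 and Rpl29; Rplp0 gained 4055 copy counts in KO3 alone.

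For other genes the copy held most of the counts in every library. Copies made up 95.5% to 97.9% of the summed count of Rpl5, 92.8% to 94.4% of that of Rpl12 and 93.8% to 95.5% of that of Rpl27, so few of these counts were on the rows of the genes. The Rps27 row was also small: Rps27rt, annotated as protein-coding, shared 91.6% to 98.7% of words with Rps27 and took 98.5%, 96.6% and 94.6% of the sum of both in WT and 96.9%, 94.5% and 97.5% in KO. The sum measured 1895 CPM, 1234 CPM and 1067 CPM in WT and 1255 CPM, 1226 CPM and 1498 CPM in KO. The groups overlapped widely, and the log2 fold change of the sum was -0.094. How reads that match both were assigned is not given in the sources used here.

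Lower values in KO were also seen in genes with few copy counts. Of the 59 genes whose copies held under 1% everywhere, Rps27 and Rps27rt were set aside because they share most of their words with each other. Of the 57 left, 55 had a log2 fold change below 0, the median was -0.22, and in 18 (31.6%) all KO libraries lay below all WT libraries, against 4.81% of all tested genes. With all copies added to their genes, and Rps27 merged with Rps27rt, 80 of 82 genes were below 0 with a median of -0.22, and 16 were lower at an unadjusted p under 0.05 against 2.13% of all tested genes (edgeR quasi-likelihood test). All KO libraries lay below all WT libraries in 29 of these 82 genes (35.4%), against 4.86% of all tested genes. The share of counts was then 9.80%, 9.84% and 9.78% in WT and 8.67%, 7.48% and 9.38% in KO. For the 19 genes with heavy copies the median SD of log2 CPM within groups was 0.28 for the gene alone and 0.15 with the copies, the latter like the 0.15 of the 59 genes with few copies.

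Genes with and without a TOP tract at the annotated start, shown above for Rps6 and others, covered overlapping ranges. The 14 genes with a tract had a median log2 fold change of -0.21 and ranged from -0.30 to 0.14, and 13 were below 0. The 49 genes without one had a median of -0.23 and ranged from -0.65 to 0.30, and 45 were below 0.

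Other genes of translation were read from the same fit, and 0 of them passed the adjusted threshold. At an unadjusted p under 0.05 the lists below had from 0 to 5 genes lower in KO (edgeR quasi-likelihood test). Fau and Rack1, ribosome components with other symbols, had log2 fold changes of -0.30 and -0.25. Of 22 other known TOP genes, 21 were below 0 with a median of -0.21, and 5 (22.7%) were lower at an unadjusted p under 0.05, against 2.12% of all tested genes. Of 9 genes of elongation, which include Eif5a, Tpt1 and the kinase gene Eef2k, 8 were below 0 with a median of -0.20. These lists are not separate. The 22 other TOP genes include all 3 listed ribosome components with other symbols, Fau and Rack1 among them. They also include 6 of the 9 genes of elongation and 4 of the initiation factor genes. Ribosome building, chaperones and quality control each share 1 gene with them. Without KO2 the medians were -0.14 for the other TOP genes and -0.10 for elongation.

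Eef1d, a subunit of the exchange factor that reloads elongation factor 1A, had the smallest p among them. It measured 180 CPM, 195 CPM and 204 CPM in WT and 155 CPM, 131 CPM and 157 CPM in KO, with no overlap. Its log2 fold change was -0.40 (SE 0.10), with an unadjusted p of 0.00412 and an adjusted p of 0.556 (edgeR quasi-likelihood test, Benjamini-Hochberg adjusted). Eif3f, a subunit of initiation factor 3, measured 467 CPM, 457 CPM and 456 CPM in WT and 405 CPM, 370 CPM and 419 CPM in KO. Its log2 fold change was -0.23 (SE 0.088), and its WT libraries were nearly equal.

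Initiation factors and ribosome building had medians closer to 0. Of 34 initiation factor genes 30 were below 0 with a median of -0.085, 5 (14.7%) were lower at an unadjusted p under 0.05, and in 11 (32.4%) all KO libraries lay below all WT libraries, against 2.12% and 4.81% of all tested genes. Of 68 genes of ribosome building 62 were below 0 with a median of -0.095. The proteins of the mitochondrial ribosome, which is built apart from the cytosolic one, had a median of -0.11, with 62 of 78 genes below 0 and 3 (3.85%) lower at an unadjusted p under 0.05, near the 2.12% of all tested genes. Genes of mTORC1 and the S6 kinases had 13 of 32 below 0 and a median of 0.042. Of 17 genes of the p53 response 7 were below 0, and Cdkn1a, which halts the cell cycle, had a log2 fold change of 0.66 with an unadjusted p of 0.0354 (edgeR quasi-likelihood test). Aen, a p53-induced nuclease, had -0.23 with an unadjusted p of 0.0402 in the same test. Without KO2 the median of the mTORC1 list was 0.0080 with 16 of 32 genes below 0, and that of the p53 list turned from 0.053 to -0.023 with 10 of 18 below 0. Of 13 chaperones of ribosomal proteins 9 were below 0, and of 13 genes of ribosome quality control 8 were.

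**Figure D4:**
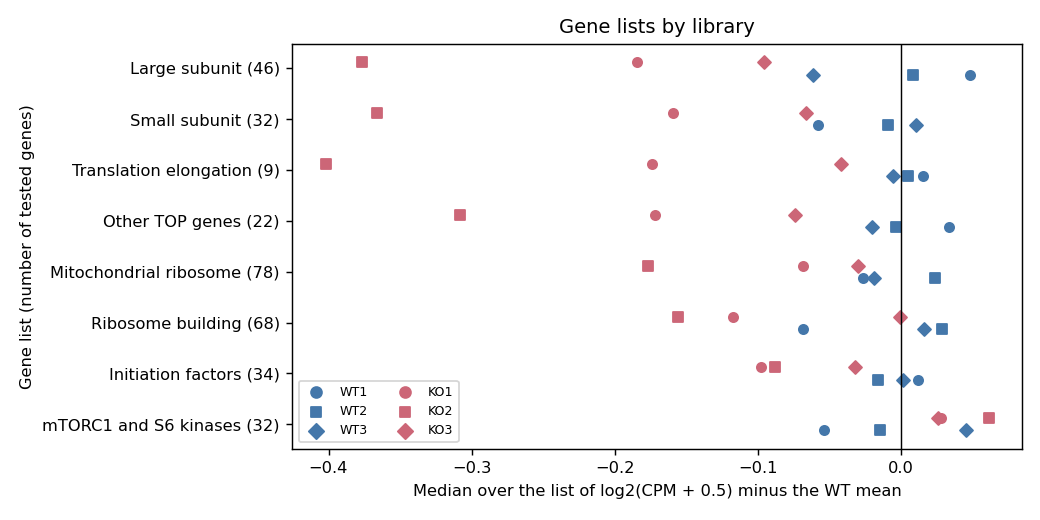
Median over each gene list of log2(CPM + 0.5) minus the log2(CPM + 0.5) of the gene's WT mean (x axis) in each library; blue symbols are WT and red symbols KO libraries, and the number of tested genes stands beside each list. KO2 lies lowest for both subunits, elongation genes and other TOP genes, and KO3 lies nearest to the WT libraries.

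Markers of the cells in the gate differed between libraries too. Both T cell genes and genes of type 1 conventional dendritic cells (cDC1), which carry CD8a in the mouse spleen, were measured, and Cd8a itself was at 692 CPM, 1028 CPM and 967 CPM in WT and 696 CPM, 481 CPM and 1023 CPM in KO. Of 10 CD8 T cell markers 10 were below 0, with a median log2 fold change of -0.33. Their summed level was 3887 CPM, 5048 CPM and 4850.4 CPM in WT and 3555 CPM, 2896 CPM and 4731 CPM in KO. KO2, the library with the smallest ribosomal protein share, was lowest here and KO1 second lowest. WT1, however, held the highest ribosomal protein share with a CD8 T cell sum below those of WT2, WT3 and KO3.

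Of 9 cDC1 markers 8 were above 0 and 6 (66.7%) were higher in KO at an unadjusted p under 0.05, against 4.14% of all tested genes (edgeR quasi-likelihood test). Their sum was 568 CPM, 558 CPM and 612 CPM in WT and 803 CPM, 763 CPM and 736 CPM in KO, with no overlap. B cell markers summed to 2630.4 CPM, 1545 CPM and 1497 CPM in WT and 2792 CPM, 3065 CPM and 1297 CPM in KO, with 8 of 8 above 0. Monocyte and macrophage markers summed to between 1169.9 CPM and 1878 CPM in WT and between 1246 CPM and 2298 CPM in KO, with 7 of 8 above 0. Among these 8, 3 (37.5%) were higher in KO at an unadjusted p under 0.05, against 4.14% of all tested genes (edgeR quasi-likelihood test). In each of these last lists WT1 was the highest WT library.

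Erythroid markers, 8 of 8 tested above 0, summed to 857 CPM, 564 CPM and 245 CPM in WT and 451 CPM, 2736 CPM and 848 CPM in KO, so that KO2 was far above the rest. Without KO2 the median log2 fold changes were 0.059 for erythroid, 0.083 for B cell, 0.54 for cDC1 and -0.19 for CD8 T cell markers. They were 0.39 for monocyte and macrophage markers and 0.43 for neutrophil markers. Neutrophil markers, 7 of 7 above 0, summed to between 205 CPM and 862 CPM in WT and between 343 CPM and 1076 CPM in KO. CD4 T cell markers, 4 of 5 above 0, had a median log2 fold change of 0.34, or 0.22 without KO2, opposite in sign to the CD8 T cell markers. Their sum was 161 CPM in KO2, close to the 160 CPM of KO1 and the 159 CPM of WT1. Sums of CD4 T cell, plasma cell, plasmacytoid dendritic cell and natural killer cell markers overlapped between the groups. The part of these cells in the ribosomal protein result was not tested.

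**Figure D5:**
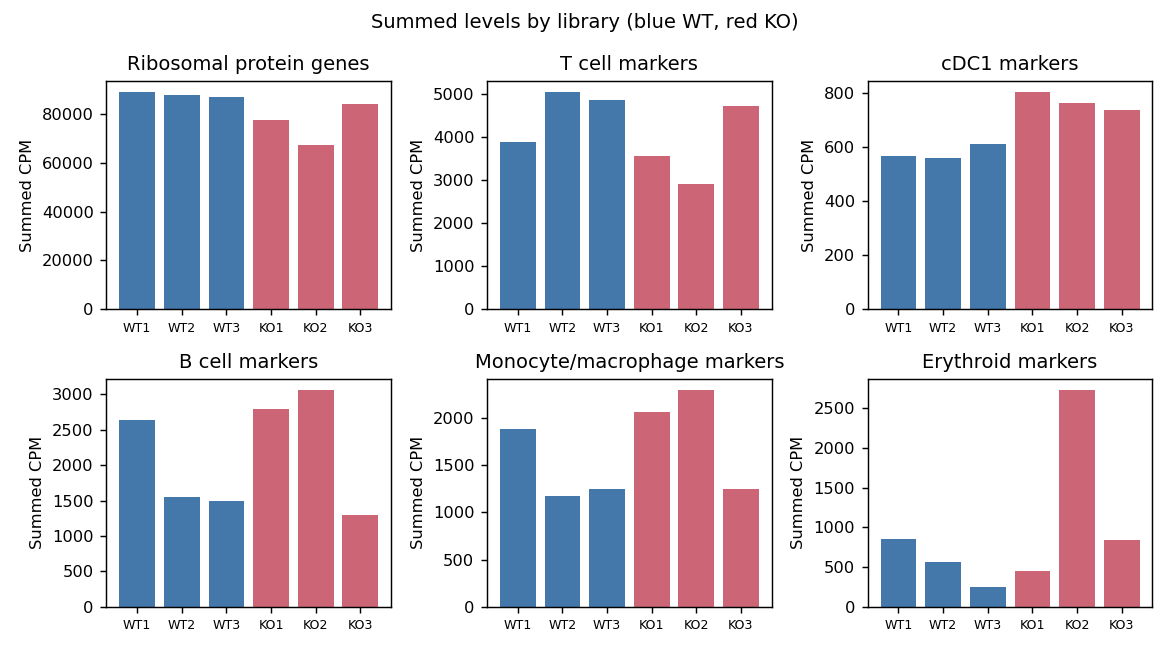
Summed CPM (y axis, from 0) in each library of the 83 ribosomal protein genes and of 5 lists of cell type markers; blue bars are WT and red bars KO libraries. The panel of T cell markers shows the CD8 T cell list. KO2 has the lowest ribosomal protein and CD8 T cell sums and the highest B cell, monocyte/macrophage and erythroid sums, while cDC1 sums are higher in all 3 KO libraries.

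The ribosomal protein genes lay on 19 chromosomes, 4 of them on X, and 7 on chromosome 11, which also carries the deleted cluster. Rpl23a (chr11:78180932-78183584) was the nearest, 0.108 Mb from Mir144 (chr11:78073005-78073070). It measured 1582 CPM, 1437 CPM and 1245 CPM in WT and 1191 CPM, 1064 CPM and 1411 CPM in KO. The groups overlapped, and the log2 fold change of -0.24 (SE 0.14) was near the median of the 83 genes.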

How the data were processed

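Expected counts per Ensembl gene were deposited by the authors for 3 WT and 3 KO libraries. The labels name GRCm38 (mm10) and a SMARTER mRNA kit. The aligner, counter, annotation and use of strand are not given in the sources used here. Counts were rounded to whole numbers, and 98.8% of the identifiers matched GENCODE M21. edgeR 4.0.16 (R 4.3.3) was run with TMM factors, its expression filter (minimum count 10, minimum total 15), the quasi-likelihood test and Benjamini-Hochberg adjustment at 0.05 over all 13024 tested genes. Alternatives used DESeq2 1.42.0, limma 3.58.1, other scalings and filters, left-out libraries and counts with copies added. CPM was scaled to the library total. Transcript lengths came from GENCODE. Scripts were tested on simulated data.

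The ribosomal protein genes, the other gene lists and the markers were chosen with earlier results of these data known. Named genes were the 6 lowest by fold change and up to 6 of the highest above 0 (5 were), the 6 highest and 6 lowest by level per kilobase, the 6 of widest spread, near relatives and their partners, 10 genes of known role, and up to 3 genes of smallest p in each other list. Library pairs differed beyond counting noise.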

Additional observations from a re-analysis of the deposited data

How the results depend on the processing

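With 3 libraries a group the median SE of a ribosomal protein gene was 0.127 on the log2 scale, against a median log2 fold change of -0.22. Genes called numbered 4 under the settings of the report, 52 with DESeq2, 12 without the low-count filter, 9 with the replicate block and 2 to 94 with a library left out (94 without KO3). Ribosomal protein genes called numbered 0, and 0 to 1 with a library left out. Those lower at an unadjusted p under 0.05 numbered 17, and 28 with DESeq2 (1.12% of all genes), 31 without the filter (2.11%), 10 with library totals alone (1.66%), 9 with the replicate block (1.42%) and 2 to 43 with a library left out (2 without KO2, 3 without KO1, 8 without WT2, 43 without KO3). Their median log2 fold change stayed below 0 in every setting, from -0.32 to -0.14 with a library left out, and from -0.32 to -0.12 for the small and -0.33 to -0.16 for the large subunit. The difference in share ran from -1.56 to -0.72 percentage points with a library left out. Same-numbered WT and KO libraries did not deviate together (correlations -0.013, -0.18 and 0.092), so the numbers were not taken as pairs. Adding the annotated copies by sequence was chosen after seeing the data.

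Of 33 named ribosomal protein genes, 23 kept their direction in every setting. The size was less stable: leaving out 1 library moved 27 of the 33 by over 1.5 times, 19 of them without WT1, 17 without KO2 and 17 without KO3. Rpl31 turned to -0.0023 with upper-quartile factors, -0.0083 with factors computed without ribosomal protein genes, -0.011 without the filter, -0.0087 with "-ps" copies added and -0.0090 with copies added by sequence. Rpl39 turned to -0.0024 with factors computed without ribosomal protein genes and -0.0056 without the filter. Rps12 turned to -0.19 with either set of copies added, and Rps27 to -0.094 with copies added by sequence. With a library left out the ranges that crossed 0 were -0.20 to 0.19 for Rpl31, -0.088 to 0.079 for Rpl39, -0.17 to 0.049 for Rpl22l1, -0.17 to 0.064 for Rpl27, -0.18 to 0.39 for Rps27, -0.23 to 0.097 for Rps6, -0.52 to 0.18 for Rpl15, -0.24 to 0.78 for Rps12, -0.29 to 0.19 for Rps27rt and -0.19 to 0.071 for Rps19bp1. The cause was not tested.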
